A study of Mus musculus with 8 samples.

Results

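The genes described here are 35 interferon-stimulated genes, most of them with a known part in antiviral defence. They were taken by gene symbol from a table of 24421 genes, and all 35 were found. All 35 also passed the filter on low counts, which kept 15917 genes. By role they were 4 IFIT genes, ISG15 and its protease USP18, 2 MX GTPases and 5 genes of the OAS family. Viperin (Rsad2) was taken with the neighbouring Cmpk2, and 5 genes were grouped as membrane proteins and trafficking. The rest were 4 sensors of viral nucleic acid, 4 transcription factors and 7 other effectors.

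Total RNA was sequenced from long-term haematopoietic stem cells (LT-HSCs), the most primitive self-renewing blood stem cells, sorted from mouse bone marrow as lineage-negative, CD117-positive, Sca1-positive cells with high CD150 and low CD48. A GFP reporter of Vwf, read in all 4 groups, split them into Vwf+ cells, which the submitters call megakaryocyte-biased, and Vwf- cells. The 4 groups were Vwf+ WT, Vwf+ Dnmt3a+/-, Vwf- WT and Vwf- Dnmt3a+/- cells, from mice aged 10 to 12 months, and the Dnmt3a+/- mice were heterozygous for the DNA methyltransferase gene. Each group had 2 libraries, replicate 1 from a male pool and replicate 2 from a female pool, and each pool held 3 to 4 mice, so that single animals were not resolved and sex cannot be told apart from replicate number. The labels describe neither the Dnmt3a allele nor the reporter construct. No treatment with interferon or infection is named in the labels.

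Interferons are secreted proteins that bind receptors at the cell surface. The receptors act through the kinases JAK1 and TYK2 on transcription factors such as STAT2, which joins IRF9 in a complex that binds a short DNA element in the promoters of interferon-stimulated genes. The products of these genes detect viral RNA and DNA, degrade or sequester viral RNA, and block the entry and release of virus particles. Stem cells are known to hold some of these genes, the IFITM genes among them, at a standing level without infection, and interferon given to mice is known to drive dormant haematopoietic stem cells into division.

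Libraries held 21809278 to 39402418 counts, and 17524 to 19626 genes had a count. As a check of the sort, Vwf stood at 1034 to 1409 CPM (a gene's counts per 1e+06 counts of a library after scaling) in the 4 Vwf+ libraries and at 98.9 to 116 CPM in the 4 Vwf- libraries. Dnmt3a ranged from 175 to 251 CPM in WT and from 179 to 361 CPM in Dnmt3a+/- libraries, and its difference between genotypes did not pass (edgeR adjusted p = 1), so the mRNA level did not separate the genotypes. The summed level of 10 LT-HSC markers was 2160 to 2822 CPM in the 8 libraries. Markers of other cells were far lower in sum, at 77.3 to 155 CPM for 7 endothelial and stromal genes, 17.9 to 122 CPM for 7 neutrophil genes, 15.2 to 40.7 CPM for 10 monocyte and macrophage genes, 11.4 to 18.9 CPM for 6 B cell genes and 2.02 to 8.68 CPM for the T and NK cell genes. The 4 globin genes were at 0 in all libraries. A list of 7 genes for plasmacytoid dendritic cells, the main interferon-producing cells, summed to 118 to 141 CPM. Tcf4 made up 96.1 to 115 CPM of it, and Siglech, Ly6d, Klk1, Ccr9 and Pacsin1 had at most 3.61 CPM each. That list includes Bst2, which is also 1 of the 35 genes, and Siglech, the defining marker, did not pass the filter on low counts.

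The DNA element bound by the IRF9 complex has a core that is usually written as GAAA, any 2 bases, and GAAA. It was searched on both strands in RefSeq promoter windows of the GRCm38.p6 build, from 250 bases before to 50 bases after the annotated start, and matching letters are in capitals below. Of the 35 genes, 26 had a window, and 14 of these 26 held the core, against 1079 of 27025 gene symbols (3.99%). The 14 were Isg15, Ifit1, Ifit3, Ifit3b, Stat2, Oas1a, Oas3, Rsad2, Ifih1, Ddx58, Bst2, Trim30a, Ifitm2 and Ifitm3. A match is a stretch of letters and not a measured binding site. Windows are shown for Isg15 (chr4:156200769-156201068, minus strand) and Ifit1 (chr19:34640639-34640938, plus strand), the textbook cases, with 3 overlapping matches and 2 matches. They are also shown for the 3 IFITM neighbours, of which Ifitm1 and Ifitm3 passed between Vwf+ and Vwf- cells and Ifitm2 did not: Ifitm1 (chr7:140967826-140968125, plus strand) with 0 matches, Ifitm2 (chr7:140955912-140956211, minus strand) with 1 and Ifitm3 (chr7:141010695-141010994, minus strand) with 2. The Ifitm1 window lies inside the annotated span of that gene (chr7:140967221-140969825). The bases before the start of that span were not searched, so its 0 does not cover them. Ifi44 (chr3:151749861-151750160, minus strand) held 0, and had the highest log2 change of the 35 between Vwf+ and Vwf- cells averaged over genotype. Only exact matches were counted and not stretches with another spacing, so a count of 0 does not show that a window lacks such an element. Each sequence is given 5′ to 3′ on the strand of its gene.
Isg15: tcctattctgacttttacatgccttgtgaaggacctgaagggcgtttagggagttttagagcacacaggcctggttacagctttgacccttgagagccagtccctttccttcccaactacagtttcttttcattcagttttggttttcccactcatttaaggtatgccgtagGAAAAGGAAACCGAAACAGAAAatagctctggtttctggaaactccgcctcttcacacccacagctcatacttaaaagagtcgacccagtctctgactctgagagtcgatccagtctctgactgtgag
Ifit1: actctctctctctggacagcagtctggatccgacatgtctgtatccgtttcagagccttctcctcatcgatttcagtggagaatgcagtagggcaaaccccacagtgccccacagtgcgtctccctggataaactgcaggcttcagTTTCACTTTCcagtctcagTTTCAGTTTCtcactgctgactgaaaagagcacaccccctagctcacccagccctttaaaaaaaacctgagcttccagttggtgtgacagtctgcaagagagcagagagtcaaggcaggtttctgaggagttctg
Ifitm1: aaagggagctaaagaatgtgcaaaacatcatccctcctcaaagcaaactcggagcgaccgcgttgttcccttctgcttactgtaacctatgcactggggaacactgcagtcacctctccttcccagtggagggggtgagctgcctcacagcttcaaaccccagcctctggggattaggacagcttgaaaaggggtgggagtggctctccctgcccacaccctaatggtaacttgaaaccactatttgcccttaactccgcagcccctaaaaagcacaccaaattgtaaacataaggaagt
Ifitm2: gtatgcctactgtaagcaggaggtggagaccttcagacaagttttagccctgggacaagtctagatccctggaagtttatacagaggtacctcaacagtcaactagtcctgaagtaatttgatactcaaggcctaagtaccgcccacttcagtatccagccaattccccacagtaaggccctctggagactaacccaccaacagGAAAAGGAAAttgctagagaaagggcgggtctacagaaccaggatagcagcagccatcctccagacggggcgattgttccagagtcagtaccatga
Ifitm3: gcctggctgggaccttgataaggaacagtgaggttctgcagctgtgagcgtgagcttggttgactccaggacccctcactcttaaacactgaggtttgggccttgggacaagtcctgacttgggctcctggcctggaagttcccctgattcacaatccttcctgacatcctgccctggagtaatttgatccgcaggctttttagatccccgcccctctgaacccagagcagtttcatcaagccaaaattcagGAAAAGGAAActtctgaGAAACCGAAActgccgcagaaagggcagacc
Ifi44: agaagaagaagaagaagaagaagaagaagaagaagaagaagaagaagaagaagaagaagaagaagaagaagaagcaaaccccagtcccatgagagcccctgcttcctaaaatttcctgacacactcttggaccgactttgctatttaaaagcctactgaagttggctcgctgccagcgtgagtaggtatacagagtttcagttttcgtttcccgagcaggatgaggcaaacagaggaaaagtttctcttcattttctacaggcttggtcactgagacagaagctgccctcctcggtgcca

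The genes were expressed over a wide range without a named stimulus. Per transcript length, on the authors' TPM scale, the 3 IFITM genes were the highest of the 35, and a median gene of the set stood at 28.5 TPM against 16.3 TPM for all genes tested, with 24 of the 35 above that value. IFITM proteins sit in cell membranes and hinder the fusion of virus particles. Ifitm1 (chr7:140967221-140969825; this and later gene spans are from GENCODE M21, build GRCm38 or mm10) had 630 and 534 TPM in Vwf+ WT, 549 and 463 in Vwf+ Dnmt3a+/-, 396 and 303 in Vwf- WT, and 286 and 288 in Vwf- Dnmt3a+/- libraries, the male pool first in each pair. Ifitm3 (chr7:141009586-141010770) had 480 and 468, 402 and 386, 297 and 332, and 234 and 284 TPM in the same order. Ifitm2 (chr7:140954837-140955987) had 262 and 259, 245 and 215, 251 and 254, and 183 and 254 TPM. In all 8 libraries these 3 genes stood above the other 32. Ifitm2 was the lowest of the 3 in every library, and Ifitm1 was above Ifitm3 in every library but the female Vwf- WT library. Over all libraries the ranges of Ifitm1 and Ifitm3, and of Ifitm3 and Ifitm2, overlapped.

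Irf1 and Irf9 came next, while the other transcription factors, Stat2 and Irf7, averaged 34.8 and 28.5 TPM. Irf1, an early-response activator, averaged 98.6 TPM, with 96.6 and 88.1 in Vwf+ WT, 96.4 and 85.3 in Vwf+ Dnmt3a+/-, 98.5 and 121 in Vwf- WT, and 108 and 94.2 in Vwf- Dnmt3a+/- libraries. Irf9, the DNA-binding part of its complex with STAT2, averaged 86.2 TPM, with 88.3 and 79.5, 91.3 and 81.7, 79.3 and 100, and 81.7 and 88.2 TPM in the same order. Bst2 (tetherin, which holds budding virus at the cell surface) averaged 69.1 TPM and Ifi47, an immunity-related GTPase, 67 TPM. In the lower part of the order, Isg15, a ubiquitin-like modifier, averaged 13.2 TPM, Ifit1, which binds viral RNA ends, 12.7, Rsad2 11.5, Mx2 7.23, Ifit3 4.33, Mx1 3.67 and Ifit3b 1.34 TPM. Mx2 is annotated as a polymorphic pseudogene in the mouse annotation used. Between neighbours in the order the ranges over 8 libraries overlapped for 31 of 34 pairs, and were apart between Ifitm2 and Irf1, between Rsad2 and Mx2, and between Mx1 and Ifit3b. Reads of near-identical copies, such as Ifit3 and Ifit3b or the OAS1 and IFITM genes, are of uncertain assignment, since how reads with several matches were counted is not given in the sources used here.

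**Figure D1:**
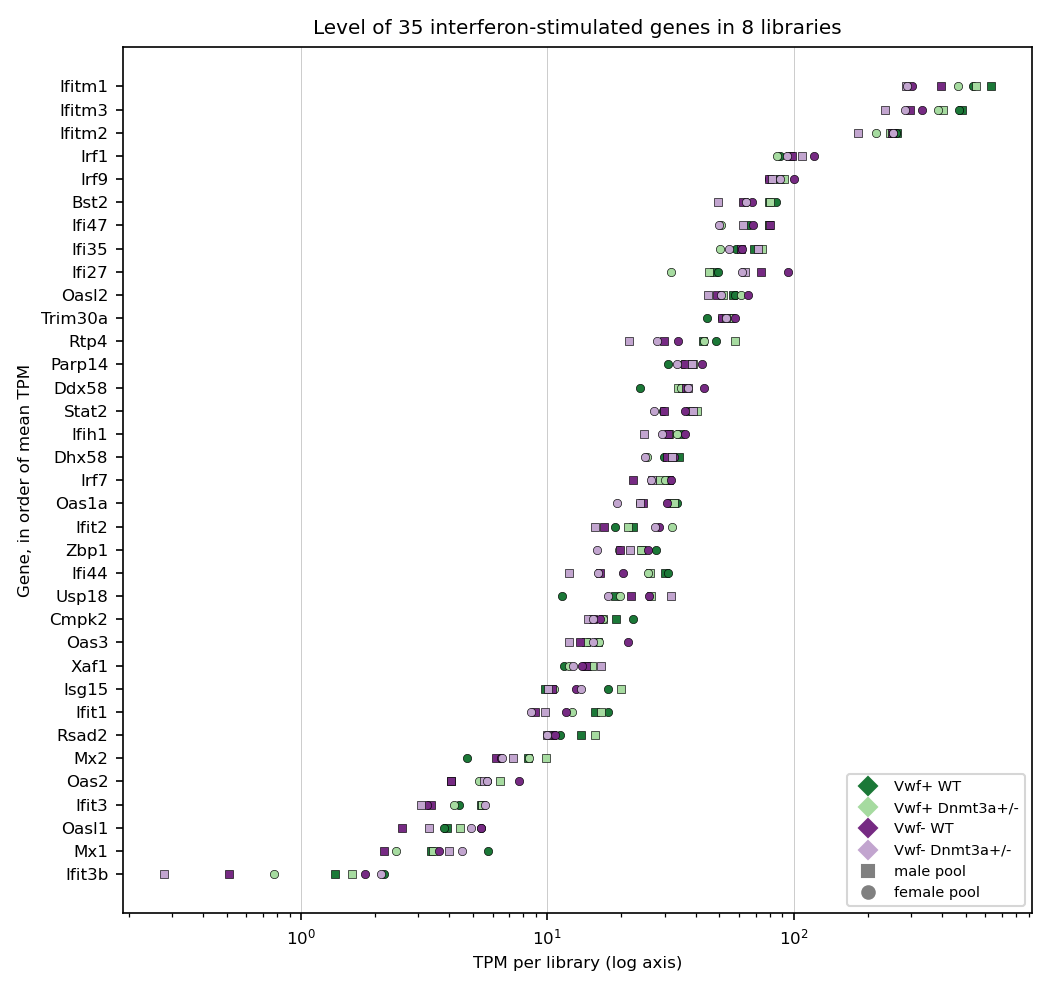
Level of the 35 genes, ordered by mean TPM (log axis), with 1 point per library, coloured by group and shaped by the sex of the pool. Ifitm1, Ifitm3 and Ifitm2 stand apart at the top and Ifit3b averages 1.34 TPM at the bottom, while most neighbours overlap.

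Vwf+ cells were compared with Vwf- cells to ask how stem cells with a megakaryocyte bias differ from the rest. Averaged over genotype, 5 of the 35 genes were higher in Vwf+ cells: Ifitm1, Ifitm3, Ifi44, Rtp4 and Ifit1. Ifi27 was lower. Their changes were between 1.57-fold and 1.82-fold. The 5 were 14.3% of the 35, where 3.76% of all tested genes were called higher, and the single lower gene was 2.86%, where 1.68% of all were called lower (edgeR quasi-likelihood test with Benjamini-Hochberg adjustment over 15917 genes, threshold 0.05; 5.44% were called in either direction). The changes of all 35 ran from -0.69 to 0.86 on the log2 scale with a median of 0.17, and 27 were above 0. For all genes the median was -0.01 and 49% were above 0. The 35 were chosen with earlier results of these data known, so these shares describe the set and are no independent test of it.

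Of the 5 genes grouped as membrane proteins and trafficking, 3 were higher in Vwf+ cells, where 3.76% of all genes were. Ifi27, also a membrane protein, was grouped with the other effectors and was lower. Ifitm1 had 248 and 247 CPM in Vwf+ WT, 212 and 180 in Vwf+ Dnmt3a+/-, 160 and 114 in Vwf- WT, and 113 and 116 in Vwf- Dnmt3a+/- libraries, again the male pool first. Every Vwf+ library was above every Vwf- library, and the log2 change was 0.82 ± 0.13 (SE; 1.76-fold, edgeR adjusted p = 0.0043). Group means were 248 ± 0.48, 196 ± 23, 137 ± 32 and 114 ± 2.4 CPM (SD, n = 2 in each group).

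Ifitm3 had 146 and 167 CPM in Vwf+ WT, 120 and 116 in Vwf+ Dnmt3a+/-, 92.4 and 96.4 in Vwf- WT, and 71 and 88.1 in Vwf- Dnmt3a+/- libraries. The Vwf+ and Vwf- libraries did not overlap, and the change was 0.65 ± 0.11 (1.57-fold, edgeR adjusted p = 0.0063). Ifitm2, on the same stretch of chromosome 7, had 76.9, 89.7, 70.7 and 62.4 CPM in the Vwf+ libraries and 75.6, 71.2, 53.6 and 76.3 CPM in the Vwf- libraries. These values overlapped, with a change of 0.11 ± 0.13 (edgeR adjusted p = 0.77). The difference between the responses of Ifitm2 and its neighbours was not tested.

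Rtp4, a chaperone that helps receptors reach the cell surface (chr16:23520291-23614222), had 31.8 and 41.9 CPM in Vwf+ WT, 41.8 and 31.5 in Vwf+ Dnmt3a+/-, 22.5 and 23.8 in Vwf- WT, and 15.8 and 21 in Vwf- Dnmt3a+/- libraries. No Vwf- library reached the lowest Vwf+ library, and the change was 0.83 ± 0.16 (1.78-fold, edgeR adjusted p = 0.014). Its annotated span overlaps Masp1 on the opposite strand, which had 0 to 1.25 CPM. Bst2 had 28.6, 35.9, 28.3 and 22.8 CPM in the Vwf+ libraries and 22.9, 23.3, 17.7 and 23.5 CPM in the Vwf- libraries, and the overlap came from 1 library, the female Vwf+ Dnmt3a+/- pool. Its change of 0.40 ± 0.15 did not pass (edgeR adjusted p = 0.2) and passed with replicate number as a block (edgeR adjusted p = 0.047; 0.047 to 0.55 over 13 alternatives), where 7 of the 35 and 13.4% of all genes were called.

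**Figure D2:**
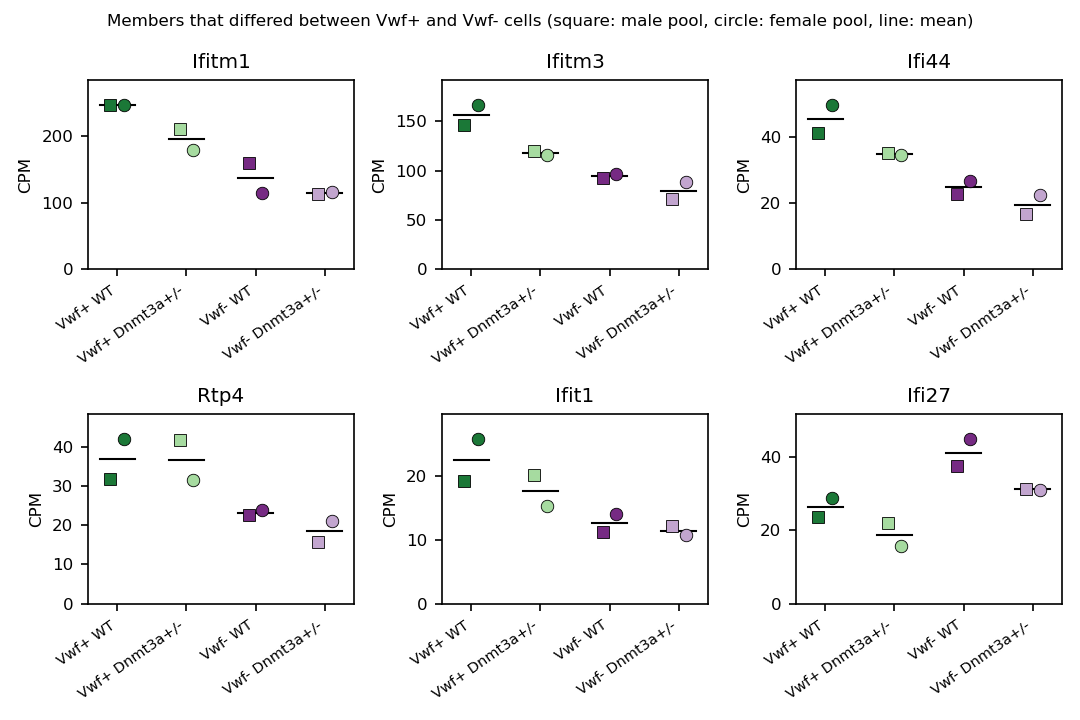
CPM of the 6 genes that passed between Vwf+ and Vwf- cells, per library (square, male pool; circle, female pool) with the group mean as a line, all axes from 0. In Ifitm1, Ifitm3, Ifi44, Rtp4 and Ifit1 all 4 Vwf+ libraries are above all 4 Vwf- libraries, and in Ifi27 all 4 are below.

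Among the effectors inside the cell, Ifi44 and Ifit1 were higher and Ifi27 was lower. Ifi44, an interferon-induced antiviral protein (chr3:151730922-151749960), had 41 and 49.7 CPM in Vwf+ WT, 35 and 34.6 in Vwf+ Dnmt3a+/-, 22.8 and 26.5 in Vwf- WT, and 16.6 and 22.3 in Vwf- Dnmt3a+/- libraries. The groups by Vwf status did not overlap, and the change of 0.86 ± 0.14 was 1.82-fold (edgeR adjusted p = 0.0066). Ifit1 (chr19:34640871-34650009) had 19.3 and 25.8, 20.1 and 15.3, 11.3 and 14, and 12.1 and 10.8 CPM in the same order. Its lowest Vwf+ value, 15.3, was close to its highest Vwf- value, 14, and the change was 0.73 ± 0.17 (1.66-fold, edgeR adjusted p = 0.036). The other 3 IFIT genes had changes between 0.14 and 0.40 and did not pass.

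Ifi27, a small membrane protein of mitochondria and the nuclear envelope (chr12:103434211-103440239), ran the other way. It had 23.6 and 28.8 CPM in Vwf+ WT, 22 and 15.6 in Vwf+ Dnmt3a+/-, 37.4 and 44.8 in Vwf- WT, and 31.2 and 31 in Vwf- Dnmt3a+/- libraries. Every Vwf- library was above every Vwf+ library, and the change was -0.69 ± 0.15, or 1.61-fold lower in Vwf+ cells (edgeR adjusted p = 0.027). Ddx58, which encodes the RNA sensor RIG-I, also kept its groups apart, with 81.8, 64.9, 76.9 and 80 CPM in Vwf+ and 87.2, 95.7, 86.3 and 88 CPM in Vwf- libraries, but its change of -0.23 ± 0.11 did not pass (edgeR adjusted p = 0.29).

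Across roles, no gene of the OAS family (changes of -0.04 to 0.38), of the MX GTPases (0.13 and 0.26), of the sensors (-0.23 to 0.26) or of the transcription factors (-0.15 to 0.24) passed in edgeR. Rsad2 (0.35 ± 0.15) and Cmpk2 (0.33 ± 0.14), which lie side by side on chromosome 12, did not pass either, with adjusted p of 0.27 and 0.26. Isg15 had 3.46 and 7.41 CPM in Vwf+ WT, 6.97 and 3.76 in Vwf+ Dnmt3a+/-, 3.82 and 4.44 in Vwf- WT, and 3.58 and 4.95 in Vwf- Dnmt3a+/- libraries, so that the 2 Vwf+ WT libraries lay on either side of all 4 Vwf- values. Usp18, the protease that removes ISG15 and damps the interferon receptor, had a change of -0.34 ± 0.21 (edgeR adjusted p = 0.49). SEs of the 35 ran from 0.09 for Trim30a to 0.69 for Ifit3b, the least expressed. By the plain criterion of no overlap between 4 and 4 libraries, 6 genes were higher in Vwf+ cells (17.1%; 7.71% of all genes) and 2 lower (5.71%; 5.33% of all genes), the 6 called genes with Cmpk2 and Ddx58.

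**Figure D3:**
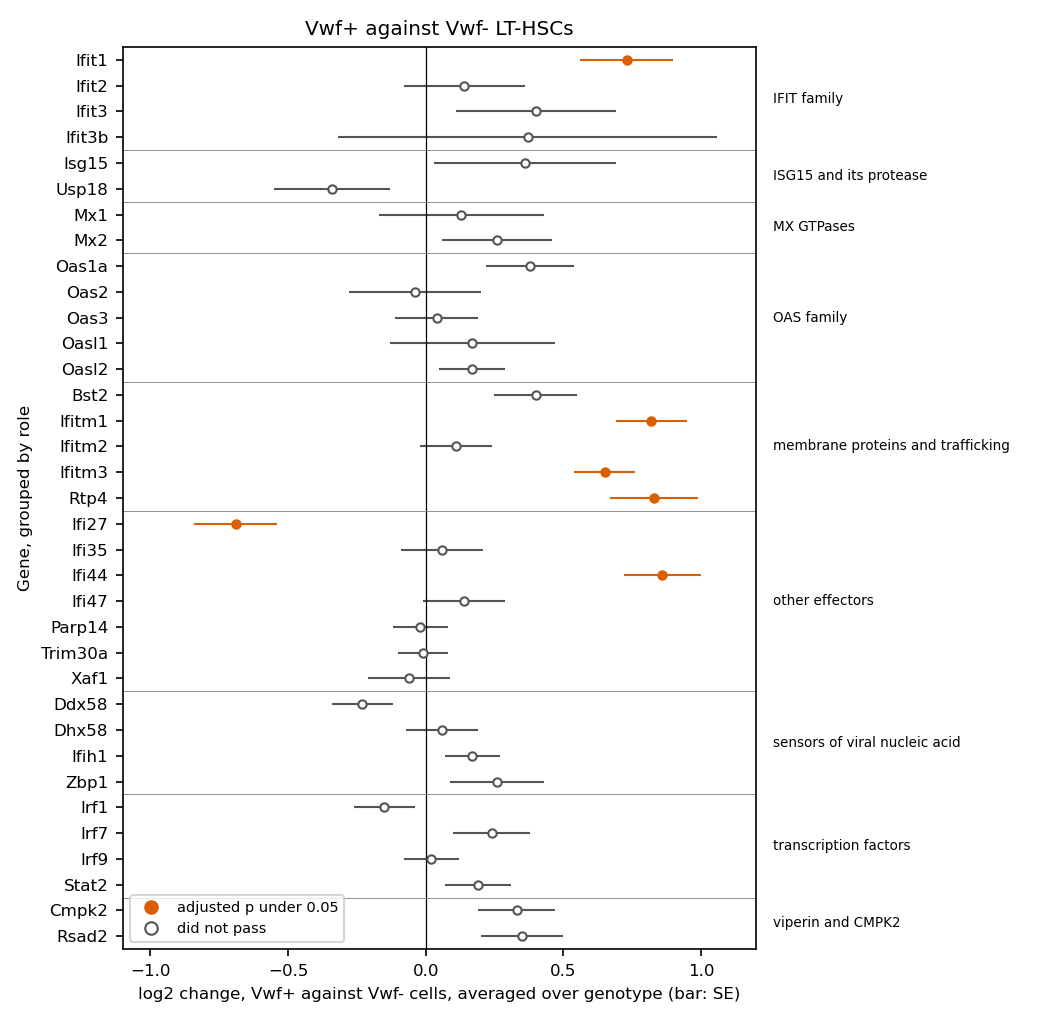
Log2 change of each of the 35 genes in Vwf+ against Vwf- cells, averaged over genotype, with its SE and grouped by role; filled points have an edgeR adjusted p under 0.05. Ifitm1, Ifitm3, Rtp4, Ifi44 and Ifit1 lie between 0.65 and 0.86 and Ifi27 at -0.69, and the other genes lie between -0.34 and 0.40.

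Ifitm1, Ifitm3 and Ifi44 passed in edgeR when any 1 of the 8 libraries was left out. Without the female Vwf+ WT library only these 3 genes passed, and Rtp4 had an adjusted p of 0.068. Ifi27 did not pass in 4 and Ifit1 in 5 of the 8 such fits, where their adjusted p reached 0.13 and 0.15. Ifit1 also did not pass with limma on log2(TPM + 1) (adjusted p = 0.12; 0.0024 to 0.15 over 13 alternatives). The libraries themselves differed in this set: the female Vwf+ WT library held the highest value of 16 of the 35 genes (45.7%; 19% of all genes), and the male Vwf- Dnmt3a+/- library held the lowest of 14 (40%; 16.6% of all genes). The median gene of the set stood 0.21 above its mean over libraries on the log2(CPM + 1) scale in the first and 0.20 below it, at -0.20, in the second, while the median of all genes was within 0.02 of 0 in every library.

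**Figure D4:**
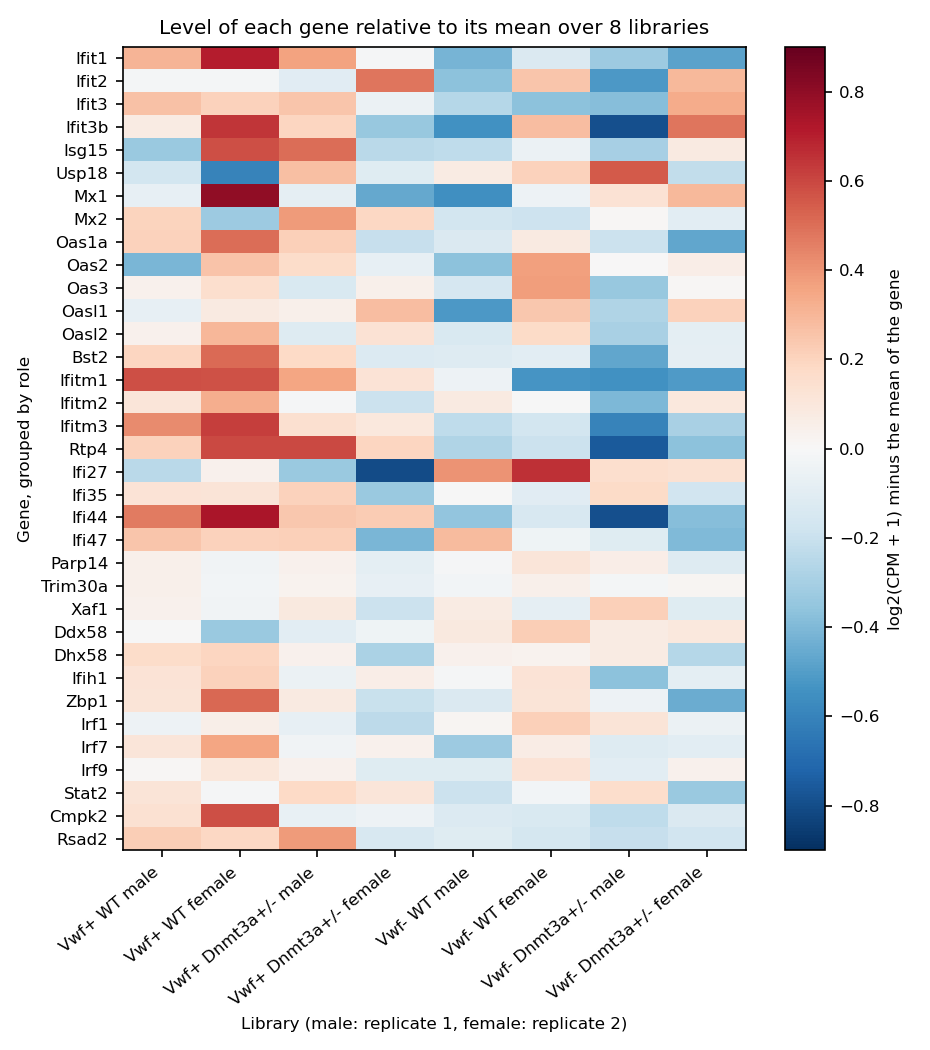
Log2(CPM + 1) of the 35 genes minus each gene's mean over 8 libraries, 1 column per library and rows grouped by role. The female Vwf+ WT column is highest for 16 genes and the male Vwf- Dnmt3a+/- column lowest for 14.

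Marker genes of other cells moved with Vwf status too. Summed endothelial and stromal markers were 122 to 155 CPM in Vwf+ and 77.3 to 88.6 CPM in Vwf- libraries, with 3 of 7 called higher (Kdr, Cxcl12 and Cdh5), and of 7 neutrophil markers 1, Elane, was higher (1.89 ± 0.44, edgeR adjusted p = 0.033), with a median change over the 7 of -0.44. Of 10 LT-HSC markers 5 were higher in Vwf+ cells (Ctnnal1, Fgd5, Hoxb5, Mecom and Slamf1), and of 3 progenitor markers Cd34 and Flt3 were lower, the 3 summing to 62.1 to 71.7 CPM in Vwf+ and 158 to 235 CPM in Vwf- libraries. Fewer cells of a type and less RNA per cell cannot be told apart in bulk samples. Mast cell and basophil markers summed to 1.59 to 4.14 CPM in Vwf+ and 8.86 to 16.1 CPM in Vwf- libraries. T and NK cell markers summed to 2.02 to 3.87 and 7.66 to 8.68 CPM. Of these only Nkg7 passed the filter on low counts, with 43 to 100 counts in Vwf+ and 217 to 323 in Vwf- libraries. Cd3e, Cd3d, Cd3g, Ncr1 and Gzma had at most 14 counts each in a library. Rn45s, a precursor of ribosomal RNA, took 7.31% to 11.9% of counts in Vwf+ and 6.08% to 9.83% in Vwf- libraries, and was higher in Vwf+ cells in each of the 4 pairs of the same sex and genotype. The part of these markers and of Rn45s in the changes of the 6 genes was not tested.

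Within WT cells alone, 2 of the 35 genes passed between Vwf+ and Vwf- cells (1.97% of all genes were called, 1.48% higher), both higher: Ifitm1 by 0.86 ± 0.18 (edgeR adjusted p = 0.041) and Ifitm3 by 0.73 ± 0.15 (adjusted p = 0.04). With replicate number as a block 6 passed (8.35% of all genes), the 5 higher genes and Ifi27. DESeq2 called 3 of the 35 in WT (Ifi44, Ifitm1 and Ifitm3), and its count over all genes is given with the processing alternatives. No gene of the set passed in WT when either Vwf+ WT library or the female Vwf- WT library was left out, and 1, Ifitm1, passed without the male Vwf- WT or the female Vwf+ Dnmt3a+/- library.

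Within Dnmt3a+/- cells 0 of the 35 passed in edgeR (1.06% of all genes were called), 6 had an unadjusted p under 0.05, as did 9.02% of all genes, and DESeq2 called 3 (Ifi44, Ifitm1 and Rtp4; 3.31% of all genes). With the replicate block 5 passed (5.37% of all genes), namely Ifitm1, Ifitm3, Ifi44, Rtp4 and Ifi27. The changes had the same sign as in WT: 0.78 for Ifitm1 against 0.86 in WT, 0.57 for Ifitm3 against 0.73, 0.84 for Ifi44 against 0.88, 0.99 for Rtp4 against 0.67, 0.63 for Ifit1 against 0.83, and -0.73 for Ifi27 against -0.65. Over the set, 26 of 35 genes had the same sign in both genotypes, where 68% of all genes did.

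The difference between genotypes in the effect of Vwf status was tested as an interaction, and 0 of the 35 passed (0% of all genes; 0 also by DESeq2 and limma). It was -0.08 ± 0.25 for Ifitm1, -0.16 ± 0.22 for Ifitm3, -0.04 ± 0.29 for Ifi44, 0.33 ± 0.32 for Rtp4, -0.20 ± 0.34 for Ifit1 and -0.08 ± 0.30 for Ifi27. Of these 6 signs only that of Rtp4 was the same under every alternative run. Cmpk2 (-0.40 ± 0.28) and Usp18 (0.41 ± 0.42) had an edgeR adjusted p of 1. No difference was detected at these SEs, which does not show that the effects were equal. Mx1, a GTPase that traps viral nucleoprotein, was the only gene of the set with an unadjusted p under 0.05 (-1.41 ± 0.60, unadjusted p = 0.039, edgeR adjusted p = 1). It had 4.72 and 9.47 CPM in Vwf+ WT, 4.69 and 3.37 in Vwf+ Dnmt3a+/-, 3.11 and 4.83 in Vwf- WT, and 5.59 and 6.39 in Vwf- Dnmt3a+/- libraries. The highest of these, in the female Vwf+ WT library, was above the other 7, and the male library of that group lay among them.

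Dnmt3a+/- cells were compared with WT cells to ask what heterozygosity for Dnmt3a changes in each fraction. No gene of the set passed, either averaged over Vwf status or within Vwf+ or Vwf- cells (0% of all genes were called in each comparison by edgeR). DESeq2, limma and the replicate block likewise called 0 of the 35; with the block 0.188% of all genes were called when averaged, 0.0377% in Vwf+ and 0.0126% in Vwf- cells. By no overlap between 4 and 4 libraries 0 of the 35 were higher (1.24% of all genes) and 0 lower (0.848%). Averaged over Vwf status, 25 of the 35 were lower in Dnmt3a+/- cells, with a median of -0.12, where 48.3% of all genes were lower and the median was 0.01.

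With the replicate block 9 genes had an unadjusted p under 0.05, all lower in Dnmt3a+/- cells, against 7.15% of all genes in either direction. Without the block there were 5 genes, all lower, or 14.3% of the set, against 3.24% of all genes. They were Ifitm3 (-0.33 ± 0.11, unadjusted p = 0.012), Ifi27 (-0.44 ± 0.15, unadjusted p = 0.016), Ifi44 (-0.36 ± 0.14, unadjusted p = 0.031), Ifitm1 (-0.30 ± 0.13, unadjusted p = 0.039) and Ifi47 (-0.34 ± 0.15, unadjusted p = 0.05), each with an edgeR adjusted p of 1. Without the female Vwf+ WT library 0 genes were below that unadjusted limit, and without the female Vwf+ Dnmt3a+/- library 1 was. On the positive side the smallest p belonged to Usp18 (0.28 ± 0.21, adjusted p = 1) and Mx2 (0.26 ± 0.20, adjusted p = 1). Usp18 had 15.6 and 11.3 CPM in Vwf+ WT, 21.5 and 16.3 in Vwf+ Dnmt3a+/-, 18.6 and 20.5 in Vwf- WT, and 26.3 and 15 in Vwf- Dnmt3a+/- libraries, and the genotypes overlapped. Mx2 had 9.54 and 6.33, 11 and 9.45, 7.18 and 7.06, and 8.24 and 7.6 CPM in the same order, and overlapped too. Summed monocyte and macrophage markers were 15.2 to 30.7 CPM in WT and 32 to 40.7 CPM in Dnmt3a+/- libraries, with 0 of 10 called. Averaged over Vwf status, their median log2 difference was 0.55, and that of 7 neutrophil markers was 1.00, with 0 called. The lists for the remaining other cell types had medians of -0.13 to 0.55. The part of these markers in the differences between genotypes was not tested.

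Within Vwf+ cells 28 of 35 genes were lower in Dnmt3a+/- cells, with a median of -0.16. An unadjusted p under 0.05 was found for 2 genes, and for 7 with the replicate block, against 2.28% and 5.92% of all genes. The smallest belonged to Ifitm3 (-0.41 ± 0.15, unadjusted p = 0.022, edgeR adjusted p = 1), whose 2 WT libraries were above its 2 Dnmt3a+/- libraries. Cmpk2, a mitochondrial nucleotide kinase, had 28.5 and 39.1 CPM in WT and 24.6 and 25 CPM in Dnmt3a+/- libraries, a difference of -0.44 ± 0.20 (unadjusted p = 0.049, edgeR adjusted p = 1). Among higher values the smallest p belonged to Usp18 (0.49 ± 0.30) and Mx2 (0.37 ± 0.29), each with an edgeR adjusted p of 1. On log2(TPM + 1) the count of lower genes was 21 and the median -0.02, but that scale moved the median of all genes to 0.12, with 71.4% of them higher. Within Vwf- cells 24 of 35 were lower with a median of -0.07, and Ifih1, the sensor MDA5, had 81.8 and 89.4 CPM in WT and 63.5 and 77.3 CPM in Dnmt3a+/- libraries (-0.28 ± 0.15, edgeR adjusted p = 1). Ifi27 differed there by -0.40 ± 0.21 (edgeR adjusted p = 1). The smallest p for a higher value belonged to Mx1 (0.59 ± 0.42) and Ifit3 (0.42 ± 0.41), both with an edgeR adjusted p of 1. Ifit3 had 3.22, 2.91, 2.87 and 5.36 CPM in the Vwf- libraries and 5.04, 4.82, 5 and 3.87 CPM in the Vwf+ libraries, WT before Dnmt3a+/-. Of the Vwf- values only the last, from the female Dnmt3a+/- pool, was above the others' range, and without it the difference was -0.11. In both fractions 21 of 35 genes were lower, where 27.3% of all genes were. These fractions of the same sex and genotype may come from the same mice, which the labels do not state.

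**Figure D5:**
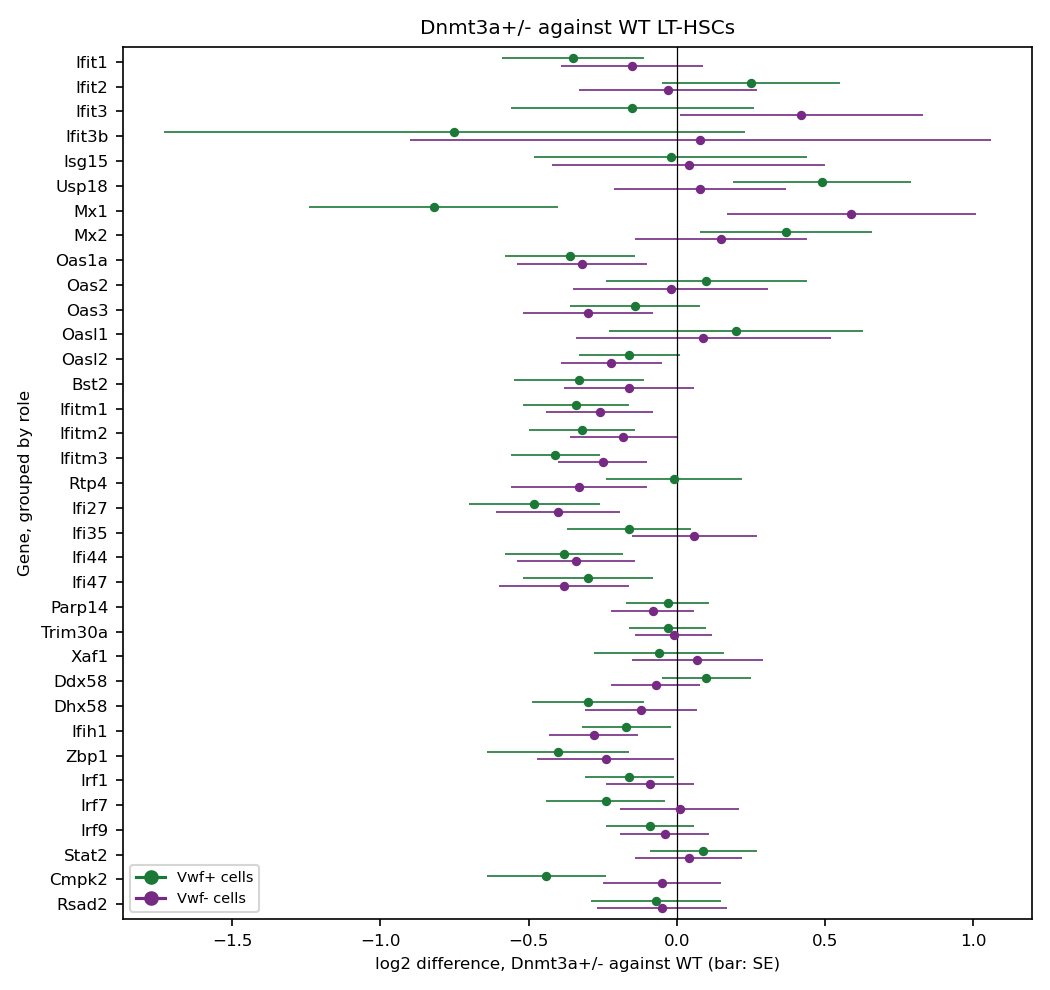
Log2 difference between Dnmt3a+/- and WT cells for each of the 35 genes, in Vwf+ cells (green) and in Vwf- cells (purple), with SE. No difference passed in edgeR, and 28 of 35 in Vwf+ and 24 of 35 in Vwf- cells lie below 0.

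Male and female pools differed in 1 of the 35 genes, Ifit2, in a fit with the 4 group means and sex (10.5% of all genes were called, 5.62% lower in male pools). Ifit2, an RNA-binding protein of the IFIT family (chr19:34550694-34576419), had 41.2, 38.8, 32.2 and 28.9 CPM in the male pools of Vwf+ WT, Vwf+ Dnmt3a+/-, Vwf- WT and Vwf- Dnmt3a+/- cells. The female pools had 41.2, 58.9, 50 and 51.5 CPM in the same order. The male value was lower in 3 of the 4 groups and equal in Vwf+ WT, and the difference was -0.52 ± 0.12 (1.44-fold, edgeR adjusted p = 0.0092). It did not pass when either Vwf- Dnmt3a+/- library was left out (adjusted p up to 0.057) or with limma on log2(TPM + 1) (adjusted p = 0.2; 8.4e-07 to 0.2 over 13 alternatives). In this fit, leaving out 1 library lets the other library of its group set the group mean. Leaving out either library of a group is thus in effect the same fit. With 1 library left out, the difference of Ifit2 ran from -0.70 to -0.41.

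Ifi47 had 75.3, 73.6, 77.4 and 58.7 CPM in the male and 73.1, 47.4, 61.6 and 47.8 CPM in the female pools of the same 4 groups, the male pool higher in each. Oasl2, an OAS-like protein that binds RNA, had 83.3, 74.6, 73.8 and 66.2 CPM in male and 99.8, 88.7, 91.4 and 76.1 CPM in female pools, the male pool lower in each. Neither passed: Ifi47 differed by 0.33 ± 0.10 (edgeR adjusted p = 0.051) and Oasl2 by -0.25 ± 0.09 (adjusted p = 0.082). Usp18 differed by 0.39 ± 0.15 (edgeR adjusted p = 0.11). DESeq2 called 3 of the 35 (Ifit2, Ifi47 and Oasl2; 15.1% of all genes). By no overlap between 4 male and 4 female libraries, Xaf1 was higher (5.91% of all genes) and Oasl1 lower (5.35% of all genes) in male pools. A further difference of the pools was the share of counts from Malat1, a nuclear RNA, at 0.974% to 1.97% in male and 0.446% to 0.585% in female libraries, and Rn45s took a higher share in the female than in the male pool of each of the 4 groups. Their part in these differences was not tested.

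Genes of the pathway outside the 35 were counted in lists by role, with Vwf+ against Vwf- cells averaged over genotype, where 5.44% of all genes were called. Of 21 interferon ligand genes 2 passed the filter on low counts, and none of 15 alpha and beta interferon genes did, with 0 to 24 counts for all 15 together in a library. Interferon-gamma had at most 6 counts. The receptor chains and kinases were present at 28.3 TPM for Ifnar1, 38.9 for Ifnar2, 179 for Jak1 and 29.5 for Tyk2. None of these 4 passed between Vwf+ and Vwf- cells, with edgeR adjusted p of 0.37 to 0.99.

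Of 9 receptors and kinases 1 was higher in Vwf+ cells, Ifnlr1, the specific chain of the receptor for lambda interferons (chr4:135686287-135708181). It had 1.08, 1.85, 2.85 and 3.19 CPM in the Vwf+ libraries and 0.354, 0.751, 0.167 and 0.0319 CPM in the Vwf- libraries. All of these levels were low and the groups did not overlap; the fitted change was 3.10 ± 0.60 (edgeR adjusted p = 0.014), a value that depends on the prior count at such low counts. Of 8 signal transducers, other IRFs and IRF2-binding proteins 2 were lower in edgeR, Irf5 (-0.69 ± 0.15, adjusted p = 0.023) and Irf2bp2 (-0.65 ± 0.15, adjusted p = 0.03). Of 14 tested genes for sensing upstream of interferon 1 was lower, Mb21d1, which encodes the DNA sensor cGAS (-0.82 ± 0.17, adjusted p = 0.019). Of 10 genes listed as negative regulators, with Isg20, itself an interferon-stimulated gene, among them, 0 passed in edgeR. With the replicate block, where 13.4% of all genes were called, 3 passed (Cish, Isg20 and Socs3, all higher). The block also called Il10rb lower among the receptors and kinases, and Irf8 higher among the signal transducers and IRFs.

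Of 46 other interferon-stimulated genes that were tested, Phf11d was higher (1.03 ± 0.25, edgeR adjusted p = 0.044) and Tap2, a peptide transporter of antigen presentation, was lower (-0.48 ± 0.11, adjusted p = 0.028). The median change of the 46 was -0.03, against 0.17 for the 35 and -0.01 for all genes. Both lists were chosen with earlier results of these data known. With the replicate block Lgals3bp and Ly6e were also called higher and Psmb9 lower. Between genotypes no gene of these lists passed. Between sexes 10.5% of all genes were called. Of the 10 genes listed as negative regulators 3 were lower in male pools (Ptpn1, Ptpn11 and Socs3). Of 14 upstream genes 2 were higher (Aim2 and Ikbke). Of the 46 genes 4 were higher (Mndal, Oas1b, Oas1c and Trim34a) and 4 lower (Lgals3bp, Lgals9, Ly6e and Tap1).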

How the data were processed

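Per the submitters' processing notes, Trim Galore, STAR, featureCounts and DESeq2 were used with the mm10 build; no versions are given. The authors deposited raw counts (whole numbers, 24421 genes, 8 libraries) and TPM values. Annotation and strand setting are not given in the sources used here.

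Counts were fitted in R 4.3.3 with edgeR 4.0.16: filterByExpr with a minimum count of 10, TMM factors of 0.958 to 1.06, 4 group means, 4 residual degrees of freedom, quasi-likelihood F-test, and Benjamini-Hochberg adjustment over 15917 genes with a threshold of 0.05. The SE is the size of the log2 change over the square root of F. CPM values are TMM-scaled, and TPM served to compare genes. Alternatives were a replicate block, RLE scaling, no filter, DESeq2 1.42.0, limma 3.58.1 on log2(TPM + 1), a sex model without the interaction term, and each library left out. The edgeR fit was tested on simulated counts of 15917 genes, for Vwf+ against Vwf- cells averaged over genotype. It recovered 56 of 100 genes changed 2-fold and 81 of 100 changed 4-fold, with 9 false calls. The simulated libraries were drawn without any effect of sex or replicate, so these figures are not error rates for the real libraries.

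P-values measure the spread between pools, here a male and a female pool in each group. In the replicate block, replicate numbers were read as pairing libraries, because a number stands for 1 sex throughout. Differences between replicates 1 and 2 correlated between groups, across 15917 genes, with r of 0.24, 0.26, 0.41, 0.31, 0.52 and 0.45. The main fit for Vwf status, genotype and their interaction left this pairing out. Differences between the sexes therefore stayed in the spread of that fit. Genes were named where they passed in any comparison, with or without the block, had 1 of the 2 smallest p in a direction of a comparison, or 1 of the 5 highest TPM; other genes named as examples were chosen after their values were seen. The 35 genes and all lists were chosen with earlier results of these data known.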

Additional observations from a re-analysis of the deposited data

How the results depend on the processing

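For Vwf+ against Vwf- cells averaged over genotype, 5 to 7 of the 35 genes passed under the replicate block, RLE scaling, no filter, DESeq2 and limma, and 3 to 6 with 1 library left out, against 6 in edgeR. Over all genes 866 passed, and 2132 with the replicate block, 1649 with no filter, 1353 by DESeq2, 563 by limma and 472 to 1387 with 1 library left out. In WT 2 of the 35 passed, and 6 with the replicate block, 4 with no filter, 0 by limma and 0 to 3 with 1 library left out; over all genes 314 passed, then 1329, 1059, 103, 729 by DESeq2 and 64 to 639. In Dnmt3a+/- cells 0 of the 35 passed, and 5 with the replicate block, 3 with no filter, 3 by DESeq2 and 0 with any library left out; over all genes 169 passed, then 855, 633, 476, 89 by limma and 75 to 291.

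Between genotypes 0 of the 35 passed under every alternative run. Over all genes the count of 0 became 30 with the replicate block, 61 with no filter, 15 by DESeq2 and 0 to 3 with 1 library left out when averaged, 6, 53 and 3 in Vwf+ cells and 2, 27 and 2 in Vwf- cells with 0 for each library left out, and for the interaction 24 with no filter and 0 with any library left out. Between sexes 1 of the 35 passed, and 3 in a model without the interaction term, 2 with no filter, 3 by DESeq2, 0 by limma and 0 to 4 with 1 library left out; over all genes 1677 passed, 287 by limma and 713 to 2922 with 1 library left out. Of 160 changes of 20 named genes over the comparisons, 52 took both signs over the alternatives, and 0 of the 9 that passed in edgeR did. Among them Ifitm2 ran from -0.01 to 0.24, Mx1 from -0.16 to 0.33 and Ifi47 from -0.04 to 0.28 between Vwf+ and Vwf- cells averaged over genotype, and Usp18 from -0.48 to 0.34 in Dnmt3a+/- cells. Ifit3 between genotypes in Vwf- cells went from 0.42 to -0.11 without the female Dnmt3a+/- library of that fraction, in a range of -0.11 to 0.79 with 1 library left out. On log2(TPM + 1) the median of all genes moved to -0.11 for Vwf status in WT, 0.12 for genotype in Vwf+ cells and 0.15 for the interaction. The causes were not tested. With 2 pools per group, changes of a size near their SE were not detectable, and Mx1, Ifit3, Ifit3b, Isg15 and Oasl1 had low counts.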

Other observations

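Other genes of the IFITM family were low, in contrast to Ifitm1, Ifitm2 and Ifitm3, and were looked up after the values were seen. Ifitm7 had 0.287 to 5.44 CPM, Ifitm5 0.344 to 4.32, Ifitm10 0 to 0.318 and Ifitm6 0 to 0.132 CPM over the 8 libraries.

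Some of the 35 genes overlap others in the annotation. Irf7 overlaps Phrf1 on the opposite strand, which had 144 to 189 CPM against 19.8 to 32.4 CPM for Irf7. Irf9 overlaps Rnf31 on the same strand, which had 47.5 to 64.1 CPM, and Ifi47 overlaps Olfr56 at 1.19 to 1.97 CPM.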
